A study of Mus musculus with 39 samples.

Results

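The colon of the inbred mouse strain BALB/cJ was compared with that of the inbred strain C57BL/6J, gene by gene, in 13 RNA-seq libraries: 6 from BALB/cJ mice and 7 from C57BL/6J mice, 1 library per mouse. They belong to a set of 39 libraries in which the ileum and the duodenum/jejunum of the same mice were also sequenced. A gene entered the comparison when it reached at least 1 TPM (a level scaled for transcript length and for the total of the library) in at least 6 of the 13 colon libraries, and 15769 of the 34600 entries of the colon table did. The labels give each mouse's strain and number and the tissue. They name no treatment, mutation, age, sex or time of collection, and they do not say which layers of the wall were sampled.

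The colon is lined by a single layer of epithelial cells arranged in crypts. Stem cells at the crypt base divide and give rise to absorptive colonocytes, which take up sodium, water and the short-chain fatty acids made by bacteria, to mucus-secreting goblet cells, to hormone-secreting enteroendocrine cells and to chemosensory tuft cells. Below the epithelium lie connective tissue, vessels, lymphoid follicles, nerves and smooth muscle, and RNA from the tissue mixes all of them. In such bulk RNA fewer cells of a type and less RNA per cell cannot be told apart.

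Every mean below is over 6 BALB/cJ or 7 C57BL/6J mice and is given with its SD, BALB/cJ first. Differences are on the log2(TPM + 1) scale, as BALB/cJ minus C57BL/6J, with the standard error (SE) from limma, and p-values are limma's, 2-sided, with Benjamini-Hochberg adjustment across the 15769 tested genes. Genes with an adjusted p under 0.05 are said to be called, to rise (higher in BALB/cJ) or to fall (lower in BALB/cJ). Because TPM values do not hold read numbers, the depth of a library cannot be read from them, and precision was judged by how far mice of a strain varied. That each library is a separate mouse is taken from the mouse numbers in the labels.

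The 13 libraries summed to between 978462 and 989436 TPM, and 15283 to 15795 entries reached 1 TPM. The correlation of log2 values was 0.975 to 0.983 between libraries of a strain and 0.931 to 0.951 between libraries of different strains, and the first principal component, which separated the strains, held 51.8% of the variance. A score of B cell markers ran from 2.59 to 3.04 in BALB/cJ and from 1.40 to 1.94 in C57BL/6J, without overlap. Genes of the Y chromosome summed to between 167 and 185 TPM in BALB/cJ mouse 1 and C57BL/6J mice 6 and 7 and to between 4.19 and 8.55 TPM in the other libraries. BALB/cJ mice 3 and 5 held the highest levels of pancreatic enzyme messengers. The numbers in the sample titles run from 1 to 16 for BALB/cJ and from 19 to 37 for C57BL/6J. The labels do not say what these numbers stand for, and whatever goes with them cannot be told apart from strain.

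The tissue label was checked against markers of the colon epithelium. Epcam, an adhesion protein of epithelial cells, stood at 1112 ± 28.4 against 1089.8 ± 46.8 TPM, and Vil1, which encodes the brush border protein villin, at 316 ± 20.7 against 324 ± 17.7 TPM. Hoxb13, a transcription factor gene of the distal bowel, was at 123 ± 12.4 against 111 ± 26.4 TPM, and Cdx2, an intestinal identity factor, at 77.4 ± 8.1997 against 98.4 ± 10.3 TPM. Of these genes Cdx2 was called (adjusted p = 0.00579). The strain labels were checked with genes whose levels are known to differ between these strains. Of the 6 genes listed for this check, 2 rose, 2 fell and 2 were not called. Apobec3, a restriction factor against retroviruses, was at 21.7 ± 2.78 against 68.3 ± 5.51 TPM without overlap. Zhx2, a repressor gene that carries a retroviral insertion in BALB/cJ, was at 4.69 ± 0.400 against 7.93 ± 0.596 TPM (log2 change -0.65 ± 0.07 SE, adjusted p = 5.9e-06) and did not overlap either.

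The strain difference was broad and mostly small. Of the 15769 genes, 3986 were called (25.3%), with 2286 higher (14.5%) and 1700 lower (10.8%) in BALB/cJ. Among the called genes, 2368 (59.4%) differed by less than 0.5 on the log2 scale, and the median size was 0.42. A change of 1 or more was found for 413 higher genes (2.62%) and 180 lower genes (1.14%). All 6 BALB/cJ libraries lay above or below all 7 C57BL/6J libraries for 1807 genes (11.5%), 1024 of them higher (6.49%) and 783 lower (4.97%). Of the tested genes, 110 reached 1 TPM in BALB/cJ libraries alone and 58 in C57BL/6J libraries alone. Passing the filter this way took all 6 BALB/cJ libraries or at least 6 of the 7 C57BL/6J libraries. The filter thus largely fixed the separation of these genes in advance, and that separation adds no support. Col4a6, Ffar3, Cyp2c67 and Hist1h2aa, given below, are among them.

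**Figure D1:**
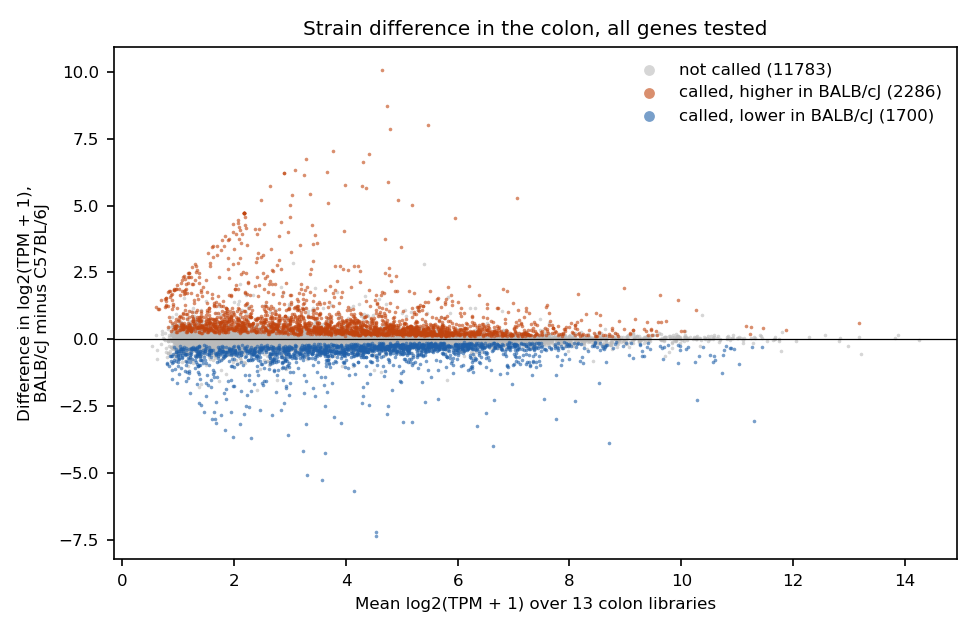
Each point is 1 of the 15769 genes: mean log2(TPM + 1) over the 13 libraries on the horizontal axis, and the difference BALB/cJ minus C57BL/6J on the vertical axis. The 2286 genes called higher and the 1700 called lower are coloured, and 2368 of the 3986 lie within 0.5 of the zero line.

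The count of calls depended on what else was held equal. With the B cell score in the model, 293 genes were called (193 higher, 100 lower). Since the score did not overlap between strains, that fit compares strains at B cell levels that no library shares. With each library scaled by 14 epithelial marker genes in place of all RNA, 4927 genes were called, and the share of them that was higher moved from 57.4% to 77.5%. Of those 14 genes, 4 fell and none rose in the values as deposited, so this scaling raises BALB/cJ values relative to C57BL/6J. The 20 largest rises and 20 largest falls kept their call and direction in every alternative tried except the B cell score, with which 18 of each did. They were picked from these same data for large called changes without overlap, so this says little about how stable other calls are. Where that score turned the direction of a gene named below, the turn is given in its paragraph, and none of the turned differences was called.

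Several of the largest rises lay outside the immune loci. Klk15, a kallikrein-type serine protease gene on chromosome 7 from 43933740 to 43939639, ran from 16.4 to 29.2 TPM in BALB/cJ (median 20.3) and from 0.344 to 1.84 TPM in C57BL/6J (median 1.27). All BALB/cJ libraries lay above all C57BL/6J libraries (log2 change 3.38 ± 0.16 SE, adjusted p = 9.7e-10). Afm, which encodes afamin, a vitamin E-binding protein of plasma, ran from 11.5 to 17.7 TPM in BALB/cJ (median 14.8) and from 0.807 to 1.23 TPM in C57BL/6J (median 1.14) (log2 change 2.90 ± 0.10 SE, adjusted p = 1.2e-11). Plscr2, a phospholipid scramblase gene, ran from 32.1 to 46.3 TPM in BALB/cJ (median 41.2) and from 4.098 to 6.39 TPM in C57BL/6J (median 5.56) (log2 change 2.73 ± 0.10 SE, adjusted p = 4.5e-11). For both genes the strains did not overlap, and within a strain the libraries stayed within a narrow band. Actc1, the actin of heart muscle, ran from 15.9 to 38.3 TPM in BALB/cJ (median 27.8) and from 1.06 to 2.85 TPM in C57BL/6J (median 1.703). The strains did not overlap (log2 change 3.27 ± 0.22 SE, adjusted p = 4.0e-08). For Actc1 the adjusted p with the B cell score in the model was 0.19.

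Among the largest falls were genes of lipid transport, xenobiotic handling, respiration and the basement membrane. Apob, the structural protein of chylomicrons and other lipoproteins, ran from 2.68 to 5.33 TPM in BALB/cJ (median 3.49) and from 24.9 to 58.2 TPM in C57BL/6J (median 45.8) (log2 change -3.16 ± 0.19 SE, adjusted p = 1.4e-08). Apol10a, of the apolipoprotein L family, was at 11.2 ± 4.24 against 101 ± 29.1 TPM. Gstm3, a glutathione S-transferase gene, ran from 2.66 to 4.81 TPM in BALB/cJ (median 3.79) and from 28.2 to 43.8 TPM in C57BL/6J (median 34.5), and every C57BL/6J library exceeded every BALB/cJ library. Cbr3, a carbonyl reductase gene that reduces ketones and quinones, ran from 2.87 to 4.48 TPM in BALB/cJ (median 4.01) and from 21.4 to 32.1 TPM in C57BL/6J (median 26.8) (log2 change -2.50 ± 0.11 SE, adjusted p = 2.8e-10).

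Ndufa12, a subunit of respiratory complex I, ran from 24.1 to 35.8 TPM in BALB/cJ (median 31.8) and from 204 to 233 TPM in C57BL/6J (median 219.9), with no overlap and a difference of -2.78 ± 0.08 SE (adjusted p = 1.7e-12). Col4a6, a chain of type IV collagen, ran from 0.252 to 0.492 TPM in BALB/cJ (median 0.306) and from 4.95 to 7.71 TPM in C57BL/6J (median 5.49) (log2 change -2.36 ± 0.10 SE, adjusted p = 1.6e-10). No BALB/cJ library reached 0.5 TPM of it. Btnl6, one of the butyrophilin-like genes through which the gut epithelium maintains its intraepithelial T cells, was at 9.29 ± 1.396 against 87.2 ± 16.5 TPM without overlap. Raet1e, a ligand of the natural killer receptor NKG2D, was at 0.630 ± 0.392 against 10.4 ± 2.48 TPM.

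**Figure D2:**
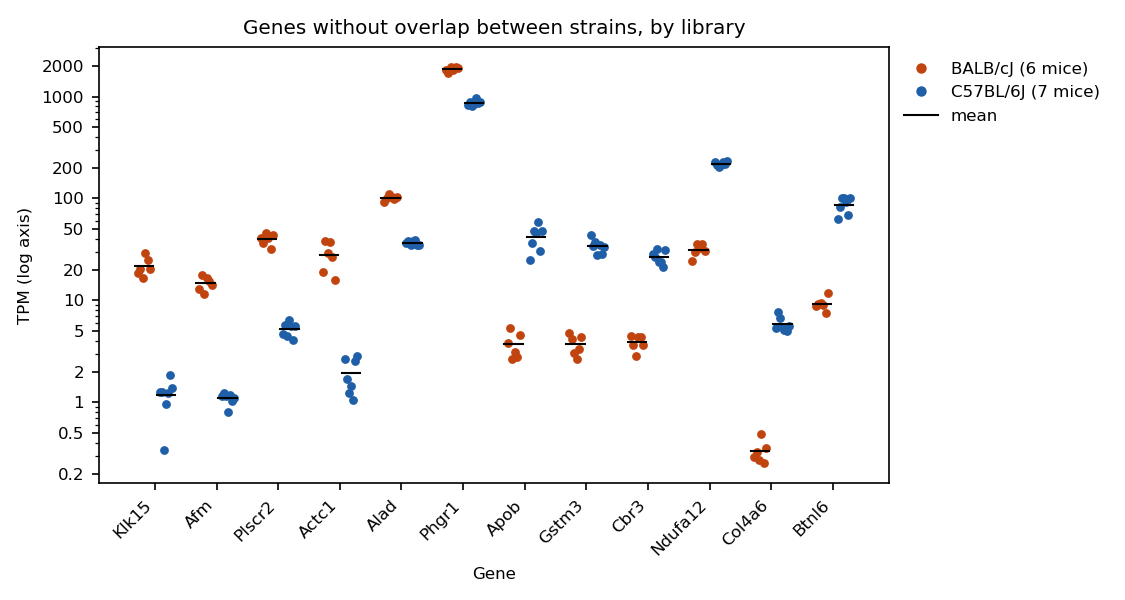
TPM on a log axis for 12 genes, 1 point per library, with the strain mean as a bar. Klk15, Afm, Plscr2, Actc1, Alad and Phgr1 lie higher and Apob, Gstm3, Cbr3, Ndufa12, Col4a6 and Btnl6 lower in all 6 BALB/cJ libraries than in all 7 C57BL/6J libraries.

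Some differences in a single entry were not differences in the summed level of its gene family. Of the 40 largest differences, 12 concerned genes with a near-identical copy elsewhere (95% identity over at least 60% of the transcript) and 26 genes without one, and 2 symbols had no entry in the annotation searched. The ribosomal protein gene copy Rps3a2 is one case. Its transcript in GENCODE M21 has 4 differences from the longest open reading frame of the Rps3a1 transcript over 792 aligned bases. The stretch aligned with bases 519 to 668 of that Rps3a1 frame is shown for both. It holds 3 of the differences, marked by capitals, and shows how little sequence separates the entries.
Rps3a1: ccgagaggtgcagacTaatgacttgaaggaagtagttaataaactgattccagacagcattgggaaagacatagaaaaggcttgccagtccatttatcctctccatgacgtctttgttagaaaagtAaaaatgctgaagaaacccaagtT
Rps3a2: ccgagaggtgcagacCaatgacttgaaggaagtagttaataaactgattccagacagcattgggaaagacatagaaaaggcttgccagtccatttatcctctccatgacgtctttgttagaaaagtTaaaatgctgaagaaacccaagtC
Within this stretch only a read that covers a capital can tell the genes apart.

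Rps3a2 alone ran from 244 to 312 TPM in BALB/cJ (median 284) and from 0 to 3.204 TPM in C57BL/6J (median 2.01). Rps3a1 alone was at 993 ± 56.2 against 1217 ± 61.1 TPM, which is a fall. Summed with the copies in the table, the family was at 1282 ± 75.3 against 1226 ± 61.4 TPM, and the sums of the strains overlapped. Tpm3-rs7, a copy of the tropomyosin gene Tpm3, ran from 123 to 137 TPM in BALB/cJ (median 128) and from 0.485 to 1.34 TPM in C57BL/6J (median 0.635), while the sum with Tpm3 was at 304 ± 19.8 against 304 ± 38.2 TPM. These sums overlapped too. Whether BALB/cJ sequence that differs from the C57BL/6J reference moved reads between copies was not tested.

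Other families gave other sums. Dynlt1a, a dynein light chain copy, was at 0.426 ± 0.693 against 10.9 ± 1.78 TPM, while the sum with its copies Dynlt1c and Dynlt1f was at 159 ± 8.69 against 123 ± 7.801 TPM, in the opposite direction and without overlap. Gsta1, a glutathione S-transferase, was at 5.15 ± 1.49 against 23.7 ± 6.32 TPM and the sum with its copies at 30.2 ± 5.12 against 33.996 ± 9.81 TPM, with overlap. Slc38a6, listed as a solute carrier, was at 1028 ± 136 against 273 ± 27.8 TPM. It shares sequence with 26 other annotated entries, of which 3 are in the table, and their sum was at 1778 ± 230.3 against 543 ± 52.1 TPM. The value of this entry can therefore not be read as that of a transporter alone. Apob, Ndufa12, Cbr3, Col4a6, Klk15, Afm and Plscr2 had no such copy.

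**Figure D3:**
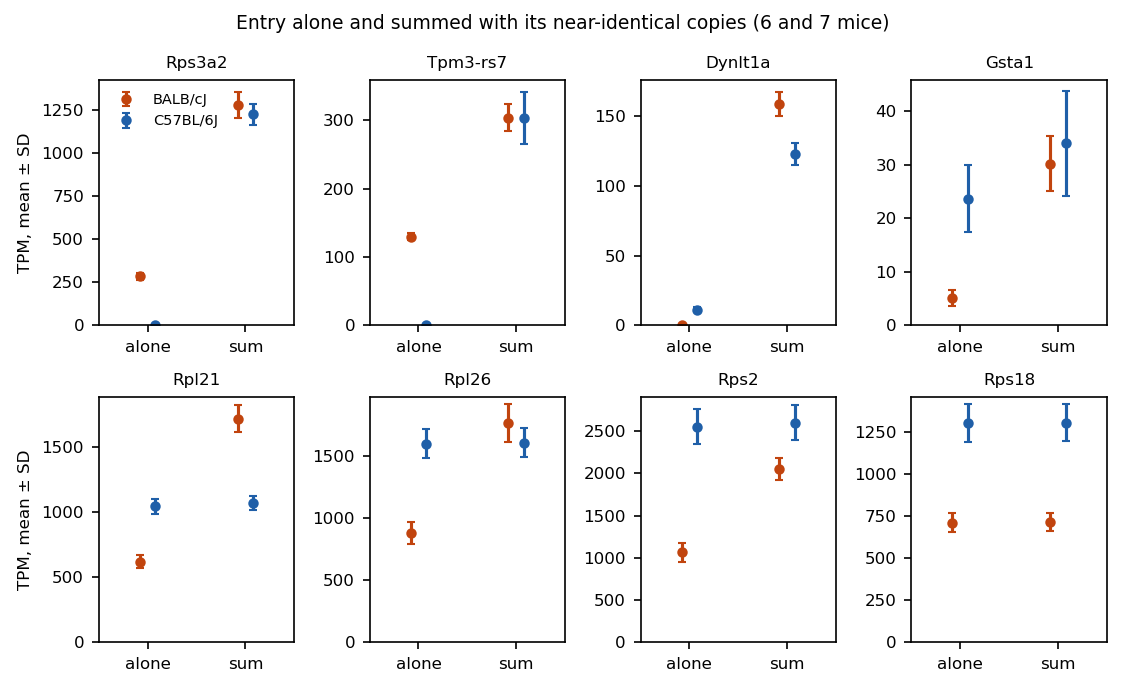
Mean TPM of an entry alone (left of each pair) and summed with its near-identical copies (right), 1 point per strain with SD bars, for 8 entries. Rps3a2 alone is at 283 and 1.69 TPM and its sums overlap, while the sums for Rpl21 and Dynlt1a are higher in BALB/cJ although the entries alone are lower.

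The gene groups below were each counted against the background of all tested genes, of which 14.5% were higher and 10.8% lower. Across 51 pathway and family lists, 29 had a larger share called than the 25.3% of all genes, and 2 had no call. With the B cell score in the model, 17 of the 51 lists had a call, with 9 calls among the cytosolic ribosomal proteins and at most 3 in any other list. Markers of several cell types outside the epithelium moved with strain. Of the B cell markers 11 of 11 rose, of the fibroblast markers 6 of 8, of the macrophage markers 6 of 10, of the adipocyte markers 7 of 9 and of the erythroid markers 4 of 5. Of the T cell markers 6 of 8 rose, and 3 did without the 3 libraries with high Y-linked genes. Of the markers of blood and lymph vessels 2 of 8 rose, beside the 25.3% called of all genes, and none of 3 pancreatic acinar markers was called. Of the smooth muscle markers 3 of 10 and of the enteric neuron and glia markers 3 of 14 fell. These shares, 30% and 21.4%, are near that of all genes. The summed fibroblast markers ran from 1469 to 2561 TPM in BALB/cJ and 1079 to 1817 TPM in C57BL/6J, and the summed adipocyte markers from 299.9 to 523 TPM in BALB/cJ and 193 to 303 TPM in C57BL/6J, both with overlap. The summed macrophage markers overlapped as well, from 381 to 742 TPM in BALB/cJ and 221 to 425 TPM in C57BL/6J. The B cell, T cell and erythroid sums did not overlap. Without BALB/cJ mice 3 and 5, 3 fibroblast markers rose and 6 smooth muscle markers fell, without C57BL/6J mouse 1, 6 enteric neuron and glia markers fell, and with epithelial scaling no smooth muscle marker did. Without the 3 libraries with high Y-linked genes, 2 fibroblast and 4 adipocyte markers rose and 1 enteric neuron and glia marker fell. With all 13 libraries and the Y-linked gene level as a covariate, 6 fibroblast and 7 adipocyte markers rose and 2 enteric neuron and glia markers fell. None of the markers in these lists was at 0 in every library. Their part in the results below was not tested.

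**Figure D4:**
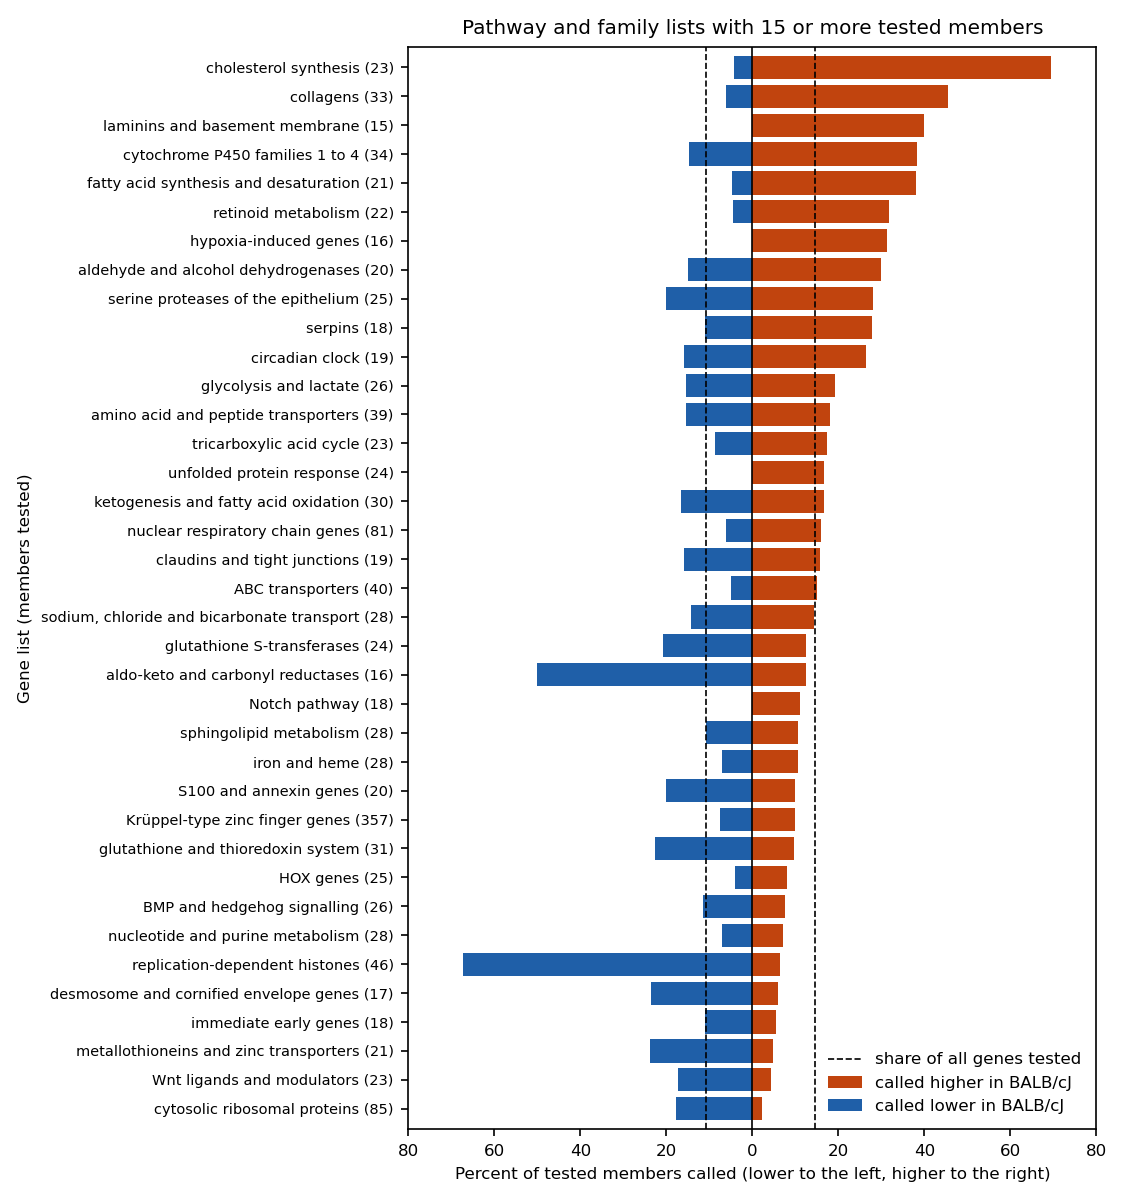
Share of tested members called higher (right) and lower (left) in BALB/cJ for the pathway and family lists with at least 15 tested members, with the shares of all 15769 genes (14.5% and 10.8%) as dashed lines. Cholesterol synthesis and collagens lie furthest to the right and replication-dependent histones furthest to the left.

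Transport genes of colonocytes differed one by one, and the list did not move one way. Of 28 genes for sodium, chloride and bicarbonate transport, 4 rose (2 without BALB/cJ mice 3 and 5) and 4 fell, with a median change of -0.03. Fxyd4, a small regulatory subunit of the sodium pump in aldosterone-responsive epithelium, ran from 8.84 to 19.3 TPM in BALB/cJ (median 13.2) and from 28.4 to 64.3 TPM in C57BL/6J (median 55.7). The BALB/cJ libraries all lay below the C57BL/6J libraries (log2 change -1.89 ± 0.22 SE, adjusted p = 1.5e-05). Sgk1, a kinase induced by the same hormone, was at 108 ± 23.9 against 174 ± 47.1 TPM (log2 change -0.67, adjusted p = 0.0103). Scnn1a, the alpha subunit of the epithelial sodium channel, was at 32.4 ± 5.48 against 47.2 ± 4.28 TPM (log2 change -0.54, adjusted p = 8.1e-04). Its beta subunit Scnn1b was not called at 9.297 ± 1.11 against 8.12 ± 1.75 TPM, and neither was the sodium-proton exchanger gene Slc9a3 at 112 ± 23.9 against 112 ± 24.5 TPM.

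Other genes of chloride and water movement rose. Ano1, a calcium-activated chloride channel gene, was at 181 ± 19.7 against 142 ± 14.6 TPM (log2 change 0.35 ± 0.08 SE, adjusted p = 0.00494), and Aqp8, the main water channel of colonocytes, at 461 ± 56.3 against 316 ± 45.6 TPM (log2 change 0.55 ± 0.10 SE, adjusted p = 0.00109). Slc26a3, the chloride-bicarbonate exchanger, was at 638 ± 66.2 against 507 ± 79.2 TPM (log2 change 0.34, adjusted p = 0.0198), and its call was lost without BALB/cJ mice 3 and 5. Cftr, the secretory chloride channel, was not called at 75.2 ± 8.32 against 79.5 ± 4.91 TPM. Scnn1a and Slc26a3 changed direction with the B cell score in the model. Of 8 potassium channel and pump genes, 3 fell and none rose. They were Kcnh3 (6.396 ± 1.75 against 10.5 ± 1.31 TPM), Kcne3, the partner of the basolateral potassium channel in crypts (207 ± 17.2 against 249 ± 20.2 TPM), and Kcnk1 (63.3 ± 2.61 against 71.1 ± 3.66 TPM), which lost its call with epithelial scaling and turned with the B cell score. Guca2a, which encodes guanylin, the peptide that stimulates salt and water secretion, was lower at 2503 ± 241 against 3081 ± 228 TPM without overlap.

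The tight junction list had 3 rises and 3 falls among 19 members. Cldn2, a claudin that forms cation and water pores in crypts, ran from 40.5 to 60.2 TPM in BALB/cJ (median 51.7) and from 62.4 to 85.4 TPM in C57BL/6J (median 73.9), without overlap (log2 change -0.59 ± 0.09 SE, adjusted p = 2.5e-04). Cldn4, a sealing claudin, was at 33.01 ± 2.99 against 47.5 ± 9.41 TPM, and Marveld2, which encodes tricellulin of the corners between cells, at 31.1 ± 1.84 against 25.9 ± 0.752 TPM. Cldn3 and Cldn7, which are more abundant, were not called at 321 ± 39.4 against 360.5 ± 30.5 TPM and 579 ± 39.3 against 627 ± 19.8 TPM.

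The receptors for short-chain fatty acids differed in opposite directions. Ffar2 ran from 25.2 to 29.3 TPM in BALB/cJ (median 27.4) and from 14.3 to 21.2 TPM in C57BL/6J (median 17.3) and Ffar3, at far lower levels, from 0.463 to 0.795 TPM in BALB/cJ (median 0.616) and from 0.985 to 1.803 TPM in C57BL/6J (median 1.399). Neither gene overlapped between strains (log2 change 0.66 ± 0.08 SE, adjusted p = 2.6e-05 for Ffar2, and log2 change -0.52 ± 0.10 SE, adjusted p = 0.00151 for Ffar3). Slc16a3, a lactate and pyruvate exporter, rose (11.98 ± 2.33 against 6.42 ± 1.87 TPM), and the butyrate transporter Slc5a8 was not called at 130.3 ± 12.8 against 143 ± 16.4 TPM. Of 30 genes for fatty acid oxidation and ketogenesis, 5 rose and 5 fell, and the median change was -0.01. With the Y-linked gene level as a covariate 5 rose and 5 fell as well. Those counts were 1 and 3 without the 3 libraries with high Y-linked genes, 3 and 3 without BALB/cJ mice 3 and 5, 2 rises with size factors over all genes, 3 rises without BALB/cJ mouse 1, 3 or 4 or C57BL/6J mouse 4, and 8 rises and 1 fall with epithelial scaling.

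Among peptide and amino acid transporters, 7 of 39 rose and 6 fell. Slc15a1, the proton-coupled peptide transporter, was at 106 ± 10.8 against 76.5 ± 12.9 TPM (log2 change 0.48 ± 0.10 SE, adjusted p = 0.00294). The basolateral amino acid exchangers Slc7a7 (25.7 ± 5.05 against 37.7 ± 4.41 TPM) and Slc7a8 (1.57 ± 0.251 against 3.39 ± 0.656 TPM) fell without overlap. Slc5a9, a sodium-coupled mannose and fructose transporter gene, was at 2.97 ± 0.996 against 7.49 ± 2.38 TPM (log2 change -1.09 ± 0.18 SE, adjusted p = 4.5e-04), and Slc39a4, the zinc importer of the gut, at 73.3 ± 9.17 against 107 ± 9.999 TPM (log2 change -0.54 ± 0.08 SE, adjusted p = 2.3e-04). Slc15a1, Slc7a7, Slc7a8 and Slc5a9 changed direction with the B cell score in the model. With epithelial scaling 11 of the peptide and amino acid transporters rose, and 4 without the 3 libraries with high Y-linked genes. With the Y-linked gene level as a covariate 6 of them rose and 6 fell.

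The peptide hormones of the distal gut's L cells were higher in BALB/cJ. Gcg, the gene of proglucagon and hence of GLP-1, ran from 115 to 166 TPM in BALB/cJ (median 146) and from 76.9 to 106 TPM in C57BL/6J (median 97.5), without overlap (log2 change 0.61 ± 0.09 SE, adjusted p = 1.5e-04). Pyy, which encodes the satiety hormone PYY, ran from 209 to 279 TPM in BALB/cJ (median 258) and from 149.6 to 211 TPM in C57BL/6J (median 176) (log2 change 0.52 ± 0.09 SE, adjusted p = 6.2e-04), and Insl5, an insulin-like peptide of the same cells, from 152 to 237 TPM in BALB/cJ (median 199) and from 73.6 to 176 TPM in C57BL/6J (median 98.1) (log2 change 0.83 ± 0.18 SE, adjusted p = 0.00383). For Pyy and Insl5 the highest C57BL/6J library reached into the BALB/cJ range. Gcg, Pyy and Insl5 were the 3 calls among 15 enteroendocrine genes (20% called, beside 25.3% of all genes). The general marker Chga was not called at 49.9 ± 7.26 against 63.7 ± 14.5 TPM, though without C57BL/6J mouse 1 it was. With the B cell score in the model Gcg and Insl5 turned, without a call.

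Goblet and surface cell genes went both ways, with 4 rises and 3 falls (1 with epithelial scaling or without the 3 libraries with high Y-linked genes) among 10 goblet genes. Of 10 surface genes 4 rose and 4 fell, and 2 and 2 did without BALB/cJ mice 3 and 5. With epithelial scaling, or without the 3 libraries with high Y-linked genes, 2 surface genes fell. With the Y-linked gene level as a covariate 4 goblet genes rose and 3 fell, and 4 surface genes rose and 4 fell. The gel-forming mucin gene Muc2 was not called at 8235 ± 3001 against 11620.0 ± 2599 TPM, and was without BALB/cJ mouse 6 or C57BL/6J mouse 2. The trefoil peptide gene Tff3 was at 2892 ± 269.5 against 2148 ± 392 TPM (log2 change 0.44, adjusted p = 0.00748). Ms4a12, a membrane protein of differentiated colonocytes, ran from 31.5 to 36.6 TPM in BALB/cJ (median 34.004) and from 13.6 to 24.2 TPM in C57BL/6J (median 20.7), without overlap. Muc3, a membrane mucin of the brush border, was at 1208 ± 321 against 1787 ± 191 TPM (log2 change -0.60 ± 0.15 SE, adjusted p = 0.00837). Klf4, a transcription factor of goblet cell and surface differentiation, was at 205 ± 23.9 against 258 ± 20.9 TPM, and Tgm3, a transglutaminase gene, at 125 ± 15.997 against 246 ± 51.1 TPM (log2 change -0.95 ± 0.14 SE, adjusted p = 1.6e-04). Tff3 and Muc3 turned with the B cell score. Phgr1, which encodes a short histidine- and glycine-rich protein of gut epithelium, ran from 1711 to 1957 TPM in BALB/cJ (median 1871) and from 799 to 968 TPM in C57BL/6J (median 859). It combined a high level with a complete separation of the strains (log2 change 1.10 ± 0.05 SE, adjusted p = 4.8e-10).

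Genes of cholesterol synthesis rose together. Of 23 tested genes, 16 rose and 1 fell, 11 of the rises were without overlap, and the median change was 0.56 against 0.015 for all genes. With each library left out in turn 14 to 17 rose, and 13 without the 3 libraries with high Y-linked genes. The number was 17 with epithelial scaling and 17 with the Y-linked gene level as a covariate. None of the 23 was called with the B cell score in the model. Fdft1, the squalene synthase that commits farnesyl units to sterols, ran from 61.7 to 86.2 TPM in BALB/cJ (median 70.1) and from 29.6 to 55.2 TPM in C57BL/6J (median 41.6) (log2 change 0.80 ± 0.12 SE, adjusted p = 1.8e-04). The lowest BALB/cJ library exceeded the highest C57BL/6J library.

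Other steps of the pathway gave the same direction. Idi1 stood at 96.4 ± 8.85 against 61.4 ± 9.43 TPM, Mvd at 39.01 ± 5.75 against 24.2 ± 5.15 TPM, Fdps at 207 ± 24.9 against 140.3 ± 23.7 TPM and Msmo1 at 168 ± 22.8 against 109 ± 18.2 TPM, all without overlap. Srebf2, whose product drives these genes when sterols are low, was not called at 46.6 ± 6.33 against 49.4 ± 3.87 TPM. Fatty acid synthesis and desaturation had 8 rises (5 without BALB/cJ mice 3 and 5, 13 with epithelial scaling) and 1 fall among 21 genes and a median of 0.23, with Acly at 258 ± 16.5 against 219.6 ± 14.5 TPM and Gpam at 22.5 ± 2.27 against 17.2 ± 1.08 TPM, while Fasn was not called at 104 ± 18.1 against 92.03 ± 10.5 TPM. Adipocyte markers, 7 of 9 of them higher, moved with these lipid genes, and their part was not tested.

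Nuclear genes of the respiratory chain were called about as often as genes in general. Of 81 tested, 13 rose and 5 fell (22.2% called, beside 25.3% of all genes), with a median of 0.06. The number of rises was not stable. It was 4 without BALB/cJ mice 3 and 5, 5 without the 3 libraries with high Y-linked genes or with size factors over all genes, 5 without BALB/cJ mouse 1 or 3, 7 without C57BL/6J mouse 4 or 5, and 8 without BALB/cJ mouse 2, 4 or 5 or C57BL/6J mouse 2, 3 or 7. It was 21 without BALB/cJ mouse 6, 36 with epithelial scaling and 11 with the Y-linked gene level as a covariate. None of 12 messengers encoded by the mitochondrion was called with limma, and their median was -0.03. Uqcrb, a subunit of complex III, was lower at 535 ± 24.8 against 724 ± 32.2 TPM (log2 change -0.44 ± 0.04 SE, adjusted p = 2.5e-06). Of its partners in that complex, Uqcrfs1 was called higher at 241 ± 13.6 against 211 ± 11.5 TPM and Uqcrh was not called at 838 ± 36.8 against 823 ± 46.8 TPM.

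In the citric acid cycle 4 of 23 genes rose (9 with epithelial scaling) and 2 fell (26.1% called, beside 25.3% of all genes). Pdha1, which admits pyruvate to the cycle, was at 133 ± 5.83 against 169.9 ± 5.82 TPM and did not overlap (log2 change -0.35 ± 0.04 SE, adjusted p = 8.4e-06), and Fh1, fumarase, at 213 ± 13.6 against 179.5 ± 3.39 TPM (log2 change 0.24 ± 0.04 SE, adjusted p = 5.9e-04). Eno3, the muscle form of enolase, ran from 257 to 366 TPM in BALB/cJ (median 322) and from 78.2 to 184 TPM in C57BL/6J (median 137) (log2 change 1.27 ± 0.15 SE, adjusted p = 2.2e-05). Pgam1, the step before it in glycolysis, was higher at 241 ± 15.3 against 168 ± 5.55 TPM, while Gapdh, often used as a reference gene, was lower at 1682 ± 151 against 2092 ± 91.9 TPM without overlap (log2 change -0.32 ± 0.06 SE, adjusted p = 7.9e-04).

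Detoxification genes differed by enzyme family and by single gene. Of 34 cytochrome P450 genes, oxidases of drugs, steroids and fatty acids, 13 rose and 5 fell (3 without BALB/cJ mice 3 and 5). Cyp2c67 ran from 3.503 to 5.198 TPM in BALB/cJ (median 4.28) and from 0.0678 to 0.345 TPM in C57BL/6J (median 0.282). Its chromosome 19 neighbour Cyp2c69 was at 13.03 ± 1.798 against 4.998 ± 1.24 TPM and Cyp2f2 at 19.3 ± 3.49 against 7.89 ± 2.07 TPM. These P450 genes were not part of the search for near-identical copies, so whether copies affect their values was not tested. On the falling side, Cyp3a13, a steroid and drug oxidase, ran from 24.3 to 28.9 TPM in BALB/cJ (median 25.7) and from 42.4 to 88.7 TPM in C57BL/6J (median 76.7) (log2 change -1.40 ± 0.15 SE, adjusted p = 6.2e-06). Cyp2r1, an enzyme that hydroxylates vitamin D, was at 0.556 ± 0.314 against 4.06 ± 0.612 TPM (log2 change -1.72 ± 0.13 SE, adjusted p = 2.0e-07). The abundant Cyp2c55 was not called at 682 ± 168 against 1068 ± 332 TPM (adjusted p = 0.0595), and was without BALB/cJ mouse 6 or C57BL/6J mouse 1 or 6.

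Carbonyl and aldo-keto reductases, which reduce aldehydes and ketones, were more often lower, with 8 falls and 2 rises (4 with epithelial scaling) among 16. Besides Cbr3, its chromosome 16 neighbour Cbr1 ran from 61.9 to 88.5 TPM in BALB/cJ (median 83.8) and from 141 to 183 TPM in C57BL/6J (median 162) (log2 change -1.01 ± 0.09 SE, adjusted p = 6.1e-07). Akr1b7 and Akr1b8, neighbours on chromosome 6, were at 3.06 ± 0.469 against 7.897 ± 1.17 TPM and 41.5 ± 8.25 against 81.5 ± 12.7 TPM. These 3 genes lay lower in every BALB/cJ library than in any C57BL/6J library.

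Glutathione S-transferases, which couple glutathione to electrophiles, went both ways within the mu class. Gstm2 ran from 189 to 237 TPM in BALB/cJ (median 224) and from 87.7 to 135 TPM in C57BL/6J (median 107) and rose (log2 change 1.05 ± 0.09 SE, adjusted p = 5.5e-07), while Gstm3 fell, as given above. Gsta4, which handles products of lipid peroxidation, was at 93.7 ± 5.19 against 47.7 ± 7.24 TPM and Gsto1 at 217 ± 19.8 against 399 ± 21.6 TPM, both without overlap. Of 24 such genes 3 rose (5 with epithelial scaling) and 5 fell. Catalase (Cat), which destroys hydrogen peroxide, was at 88.7 ± 3.496 against 63.4 ± 4.298 TPM (log2 change 0.48 ± 0.05 SE, adjusted p = 3.6e-06) and heme oxygenase (Hmox1) at 7.82 ± 1.61 against 3.35 ± 0.496 TPM (log2 change 1.01 ± 0.12 SE, adjusted p = 2.5e-05). The quinone reductase Nqo1 (29.3 ± 2.75 against 39.3 ± 4.03 TPM) and thioredoxin reductase Txnrd1 (111 ± 10.04 against 132 ± 6.09 TPM) fell. Of 7 tested sulfotransferases, limma called none. Adh1, an abundant alcohol and retinol dehydrogenase gene, was at 982 ± 105 against 634 ± 143 TPM (log2 change 0.65 ± 0.13 SE, adjusted p = 0.00211), and turned with the B cell score.

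Single genes of heme, retinoid and ceramide metabolism were sharply separated. Alad, the enzyme that makes porphobilinogen on the way to heme, ran from 93.4 to 111 TPM in BALB/cJ (median 102) and from 34.7 to 38.8 TPM in C57BL/6J (median 36.8) (log2 change 1.44 ± 0.05 SE, adjusted p = 9.7e-12), all BALB/cJ libraries lying above all C57BL/6J libraries. Alas1, the first enzyme of the pathway, was not called at 213 ± 34.4 against 204 ± 25.9 TPM. Steap4, a metalloreductase, was at 8.39 ± 0.765 against 2.94 ± 0.403 TPM (log2 change 1.25 ± 0.08 SE, adjusted p = 4.1e-08). Retinoid metabolism had 7 rises and 1 fall among 22 genes, with the cellular retinol carrier gene Rbp2 higher at 40.3 ± 6.05 against 29.2 ± 3.89 TPM and Bco2, a carotenoid-cleaving oxygenase gene, lower at 3.93 ± 1.12 against 9.38 ± 1.46 TPM (log2 change -1.09 ± 0.14 SE, adjusted p = 5.2e-05). Cers5, a ceramide synthase, ran from 57.5 to 64.8 TPM in BALB/cJ (median 59.7) and from 23.3 to 34.1 TPM in C57BL/6J (median 28.1), and the acid ceramidase gene Asah1, which breaks ceramide down, was at 135 ± 10.9 against 198 ± 18.98 TPM. Both were without overlap and in opposite directions (log2 change 1.09 ± 0.07 SE, adjusted p = 3.1e-08 for Cers5, and log2 change -0.54 ± 0.07 SE, adjusted p = 4.0e-05 for Asah1).

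Circadian clock genes differed in both directions, and the labels hold no record of the hour of collection. In the clock, a CLOCK-ARNTL dimer binds E-boxes and drives the Per, Cry, Nr1d and PAR-domain genes (Dbp, Tef, Hlf). PER and CRY proteins in turn repress the dimer, and NR1D proteins repress Arntl, Npas2 and Nfil3 through ROR elements. Of 19 tested genes, 5 rose and 3 fell.

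Promoters from 250 bases before to 50 bases after the start were searched in RefSeq (GRCm38.p6) for the E-box CACGTG, the D-box TTANGTAA and the ROR element TAGGTCA, on both strands. No match of one overlapped a match of another in the sequences printed. Over all 32851 promoters 7.15%, 2.32% and 2.61% held a match. The 16 clock genes with an entry have 21 promoters there, since 4 of them have more than 1, and of the 21 promoters 6, 1 and 2 held a match. Counted by gene, with a match in any promoter, 5, 1 and 2 of the 16 clock genes had one. Among the 8 called genes the counts were 1, 1 and 2, so most clock genes with an E-box were not called. A match is a description of letters, not of binding. The 250 bases before the start of 3 called genes are shown because they hold the matched letters, which are in capitals, and a stretch from within the 50 bases after the start is shown for Arntl.
Tef, E-box, chr15:81802423-81802672, plus strand: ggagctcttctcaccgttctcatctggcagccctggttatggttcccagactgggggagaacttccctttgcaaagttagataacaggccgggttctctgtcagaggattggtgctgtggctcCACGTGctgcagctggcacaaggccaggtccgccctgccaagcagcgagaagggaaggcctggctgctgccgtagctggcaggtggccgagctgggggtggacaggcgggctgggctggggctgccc
Per3, D-box, chr4:151044666-151044915, minus strand: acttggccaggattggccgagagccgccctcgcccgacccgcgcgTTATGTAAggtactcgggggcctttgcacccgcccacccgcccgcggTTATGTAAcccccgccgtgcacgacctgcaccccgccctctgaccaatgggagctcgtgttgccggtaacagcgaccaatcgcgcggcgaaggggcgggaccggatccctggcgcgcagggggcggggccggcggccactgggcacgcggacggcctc
Nfil3, ROR element read on the other strand, chr13:52981040-52981289, minus strand: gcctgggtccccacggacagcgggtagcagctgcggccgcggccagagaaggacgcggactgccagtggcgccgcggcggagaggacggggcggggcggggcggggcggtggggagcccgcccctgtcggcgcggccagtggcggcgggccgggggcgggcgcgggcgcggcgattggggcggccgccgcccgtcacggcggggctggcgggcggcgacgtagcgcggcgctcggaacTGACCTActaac
Arntl, ROR element: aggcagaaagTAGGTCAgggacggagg

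Dbp and Tef, PAR-domain genes driven by the dimer, and Per3 were higher in BALB/cJ. Dbp ran from 40.8 to 60.8 TPM in BALB/cJ (median 43.4) and from 9.37 to 44.7 TPM in C57BL/6J (median 20.8) (log2 change 1.20 ± 0.28 SE, adjusted p = 0.00545). Tef ran from 47.4 to 60.2 TPM in BALB/cJ (median 50.7) and from 14.6 to 47.4 TPM in C57BL/6J (median 27.3) (log2 change 0.95 ± 0.22 SE, adjusted p = 0.0059), and Per3 from 12.05 to 17.1 TPM in BALB/cJ (median 14.6) and from 6.58 to 14.3 TPM in C57BL/6J (median 9.65) (log2 change 0.60 ± 0.14 SE, adjusted p = 0.0067). The spread was wide within C57BL/6J and narrow within BALB/cJ, and in each case the C57BL/6J library closest to the BALB/cJ range was that of mouse 7, with 44.7 TPM of Dbp, 47.4 TPM of Tef and 14.3 TPM of Per3. Tef did not overlap between strains by a narrow margin, and Dbp and Per3 overlapped.

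The repressor genes Nr1d1 (59.6 ± 8.01 against 44.003 ± 11.1 TPM) and Nr1d2 (52.6 ± 1.56 against 36.1 ± 8.67 TPM) rose, though Nr1d1 lost its call in 9 of 13 fits with 1 library left out. On the opposite side, Arntl ran from 12.6 to 21.6 TPM in BALB/cJ (median 17.3) and from 17.97 to 36.7 TPM in C57BL/6J (median 28.2) (log2 change -0.68 ± 0.16 SE, adjusted p = 0.00635). Npas2, a partner of ARNTL, was at 5.65 ± 1.41 against 9.52 ± 1.35 TPM (log2 change -0.68 ± 0.13 SE, adjusted p = 0.00158), and Nfil3, the repressor that competes with DBP at D-boxes, at 3.31 ± 0.523 against 5.02 ± 0.792 TPM (log2 change -0.48 ± 0.11 SE, adjusted p = 0.00449). Per1 (17.6 ± 6.01 against 17.7 ± 4.497 TPM), Per2 (7.74 ± 1.72 against 6.64 ± 1.39 TPM), Cry1 (9.47 ± 3.03 against 11.8 ± 2.61 TPM) and Clock (46.6 ± 5.22 against 49.8 ± 3.45 TPM) were not called. The hour at which the mice of each strain were killed is not given, so strain and time of day cannot be told apart.

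**Figure D5:**
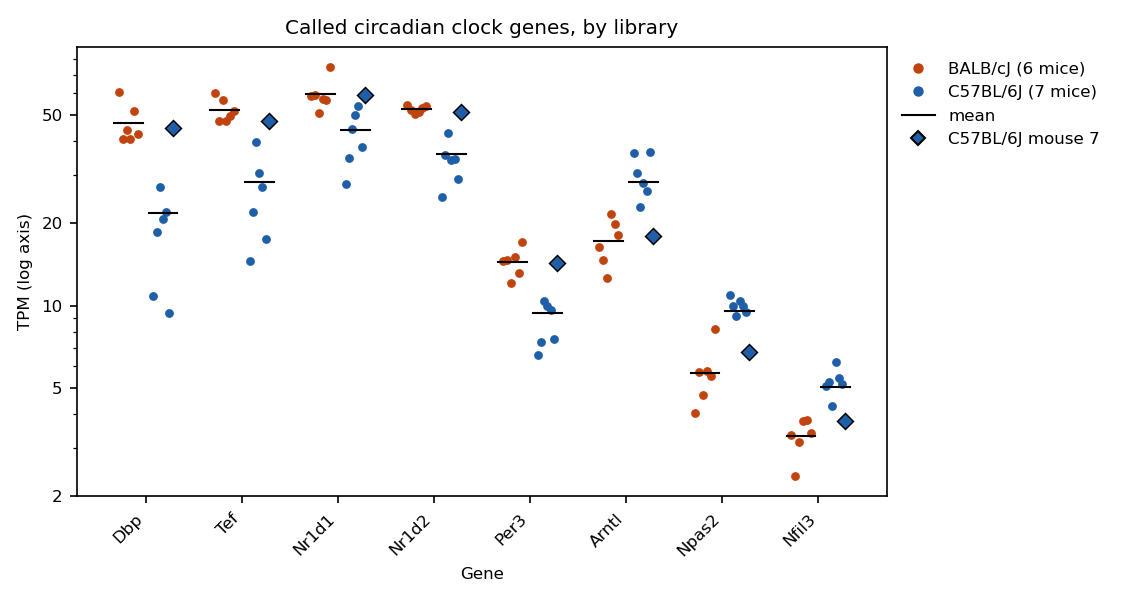
TPM by library for the 8 called clock genes, 1 point per mouse, log axis, C57BL/6J mouse 7 drawn as a diamond. Dbp, Tef, Nr1d1, Nr1d2 and Per3 are higher and Arntl, Npas2 and Nfil3 lower in BALB/cJ, and C57BL/6J mouse 7 lies nearest to the BALB/cJ points for Dbp, Tef and Per3.

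Genes of dividing cells were lower in BALB/cJ. Of 20 proliferation markers 14 fell and none rose, with a median of -0.50, and 8 fell without BALB/cJ mice 3 and 5. Mcm6, a helicase subunit of DNA replication, was at 20.9 ± 3.34 against 29.9 ± 3.07 TPM (log2 change -0.50 ± 0.10 SE, adjusted p = 0.00148). Top2a, the topoisomerase of dividing cells, ran from 52.3 to 74.5 TPM in BALB/cJ (median 61.7) and from 76.6 to 113 TPM in C57BL/6J (median 84.7) and Ccnb2, a mitotic cyclin, was at 25.2 ± 3.39 against 36.5 ± 5.28 TPM, both without overlap. Mki67, the antigen Ki-67, was at 50.3 ± 11.1 against 72.9 ± 8.85 TPM. Lgr5, the receptor that marks crypt stem cells, was not called at 5.34 ± 1.63 against 6.596 ± 0.873 TPM, and was without BALB/cJ mouse 6.

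Replication-dependent histone genes are transcribed in S phase and their messengers end in a stem-loop without a poly(A) tail, so that they are read in libraries depleted of ribosomal RNA but poorly in poly(A)-selected ones. Of 46 tested, 31 fell and 3 rose, the median was -0.80, and with each library left out 30 to 33 fell. The number was 24 without the 3 libraries with high Y-linked genes, 32 with the Y-linked gene level as a covariate and 1 with the B cell score in the model. The linker histone gene Hist1h1b ran from 68.5 to 109 TPM in BALB/cJ (median 90.4) and from 143 to 233 TPM in C57BL/6J (median 167) (log2 change -0.96 ± 0.13 SE, adjusted p = 5.9e-05). The core histone gene Hist1h2bk was at 111 ± 16.4 against 217 ± 43.9 TPM and did not overlap either. Hist1h2bj was at 42.5 ± 8.54 against 215 ± 64.05 TPM (log2 change -2.28 ± 0.19 SE, adjusted p = 7.0e-07). Hist1h4i was higher at 37.7 ± 8.34 against 15.5 ± 2.62 TPM, and Hist1h2aa, a testis-type H2A gene, ran from 6.79 to 21.9 TPM in BALB/cJ (median 11.2) and from 0 to 0.873 TPM in C57BL/6J (median 0). Members of this family share long stretches of coding sequence, and how far that affects single values or the count was not tested.

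Of 85 tested genes for cytosolic ribosomal proteins, 15 fell and 2 rose (9 without BALB/cJ mouse 6, 10 with epithelial scaling). The share called was 20%, beside 25.3% of all genes, and the median over the list was 0.05. Several of those that fell have near-identical copies in the table. Rpl21 was at 618 ± 49.9 against 1042 ± 57.7 TPM alone and at 1715 ± 101 against 1068 ± 54.4 TPM summed with its copies, and Rpl26 at 879 ± 84.9 against 1597 ± 119 TPM alone and 1759.8 ± 153 against 1605 ± 119 TPM summed. The mean was higher in BALB/cJ in both sums, without overlap for Rpl21 and with overlap for Rpl26. Rps2 was at 1065 ± 109 against 2554 ± 209.8 TPM alone and at 2052 ± 133 against 2600.3 ± 209 TPM summed, and was still lower without overlap. The sums for Rplp0 (1566 ± 103 against 2017 ± 142 TPM), Rps18 (712 ± 53.5 against 1303 ± 112 TPM) and Rpl13a (1616 ± 100.2 against 1949.5 ± 130.3 TPM) were lower without overlap too. For other falling genes the sums of the strains overlapped, as for Rps3a1 above. The mean sum was higher in BALB/cJ for Rpl17 (1248 ± 76.4 against 1118 ± 61.7 TPM) and Rps7 (1504 ± 156 against 1370 ± 122 TPM). It was lower for Rpl29 (1191 ± 71.7 against 1239 ± 62.03 TPM) and Rps9 (1374 ± 78.2 against 1486 ± 75.3 TPM). Rps28 and Rps14, for which no near-identical copy was found, were at 1169.5 ± 94.8 against 1998 ± 122 TPM and 957 ± 72.99 against 1220.2 ± 99.5 TPM. Rplp1 and Rplp2, partners of Rplp0 in the ribosomal stalk, were not called at 1445 ± 149.6 against 1446 ± 104 TPM and 1532 ± 32.5 against 1516 ± 42.4 TPM.

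Genes of the extracellular matrix were more often higher than lower in BALB/cJ. Of 33 collagen genes 15 rose and 2 fell, with a median of 0.33. With the Y-linked gene level as a covariate 13 rose and 2 fell. The number of rises was 8 without BALB/cJ mouse 4, 7 without BALB/cJ mouse 5, 7 without BALB/cJ mice 3 and 5, and 6 without the 3 libraries with high Y-linked genes. Col4a1 and Col4a2, the chains of the most widespread basement membrane collagen, were at 342 ± 67.3 against 232 ± 22.98 TPM and 109.9 ± 10.4 against 79.6 ± 9.83 TPM, and the laminin chain gene Lamc1 was at 57.6 ± 4.13 against 45.3 ± 6.33 TPM and agrin (Agrn) at 32.1 ± 2.69 against 20.4 ± 1.12 TPM. Col6a5, a type VI chain, ran from 6.64 to 12.1 TPM in BALB/cJ (median 10.02) and from 0.868 to 1.96 TPM in C57BL/6J (median 1.51) (log2 change 2.15 ± 0.13 SE, adjusted p = 1.3e-08). Col8a1, a short-chain network collagen, was the second fall beside Col4a6, at 9.86 ± 1.32 against 21.4 ± 3.44 TPM. Col4a6 is found with Col4a5 in a subset of basement membranes, and Col4a5 was higher at 17.2 ± 2.56 against 12.1 ± 2.12 TPM, a call lost without the 3 libraries with high Y-linked genes. The fibroblast markers Dcn and Pdgfra were at 267 ± 63.1 against 165 ± 39.2 TPM and 55.9 ± 10.2 against 38.6 ± 6.69 TPM, both calls lost without those 3 libraries and that of Dcn without BALB/cJ mice 3 and 5 as well. Col4a5, Dcn and Pdgfra kept their calls with the Y-linked gene level as a covariate and turned with the B cell score. The part of fibroblast content in the matrix result was not tested.

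Protease, serpin and keratin genes held several differences without overlap. Hpn, which encodes the membrane protease hepsin, was at 14.9 ± 1.59 against 8.13 ± 0.637 TPM, Prss41 at 4.17 ± 0.769 against 1.08 ± 0.560 TPM and Spint1, an inhibitor of such proteases, at 243 ± 12.6 against 183 ± 16.3 TPM, all higher. F2rl1, the protease-activated receptor of gut epithelium, ran from 24.7 to 29.5 TPM in BALB/cJ (median 26.8) and from 43.6 to 52.1 TPM in C57BL/6J (median 49.2), and was lower (log2 change -0.84 ± 0.05 SE, adjusted p = 2.9e-08). Serpina1a and Serpina1b, copies of the alpha-1-antitrypsin gene, were at 3.55 ± 0.361 against 0.0614 ± 0.0932 TPM and 4.85 ± 1.54 against 0.325 ± 0.192 TPM, with levels near 0 in C57BL/6J. Serpins were not part of the search for near-identical copies, so whether copies affect these values was not tested. Krt17 was at 11.96 ± 2.44 against 6.41 ± 1.48 TPM and Krt23 at 2.68 ± 0.605 against 5.25 ± 0.983 TPM, in opposite directions.

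In crypt signalling, a few genes of the Wnt and BMP pathways were called. Of 23 Wnt pathway genes 1 rose and 4 fell (21.7% called, beside 25.3% of all genes). The counts were the same with the Y-linked gene level as a covariate. There were 5 rises without C57BL/6J mouse 2, 3 without BALB/cJ mouse 1 or 6 and 4 with epithelial scaling. Falls numbered 2 with epithelial scaling or without the 3 libraries with high Y-linked genes. Lrp6, a Wnt co-receptor gene, was at 54.2 ± 4.87 against 71.7 ± 4.19 TPM without overlap, and Wnt2b, a stromal Wnt ligand gene, at 14.7 ± 2.36 against 10.1 ± 1.796 TPM. Bmp3, a ligand that opposes other BMPs, was at 15.3 ± 2.91 against 28.8 ± 7.19 TPM (log2 change -0.85 ± 0.17 SE, adjusted p = 0.00182). Wnt2b and Bmp3 turned with the B cell score. Hoxd13, a homeobox gene of the hindgut, was higher at 21.05 ± 2.83 against 12.9 ± 2.74 TPM without overlap (log2 change 0.69 ± 0.14 SE, adjusted p = 0.00214). Of 25 tested HOX genes 2 rose and 1 fell (12% called, beside 25.3% of all genes).

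Among stress genes, Hspa8, the constitutive HSC70 chaperone, ran from 1056 to 2022 TPM in BALB/cJ (median 1563) and from 2267 to 3241 TPM in C57BL/6J (median 2799), without overlap (log2 change -0.92 ± 0.14 SE, adjusted p = 2.5e-04). It was the 1 fall among 14 heat shock genes, of which 1 rose (14.3% called, beside 25.3% of all genes). Their median change was 0.02. Of 24 genes of the unfolded protein response 4 rose (16.7% called, beside 25.3% of all genes), and 6 with the Y-linked gene level as a covariate. The number was 2 without BALB/cJ mouse 5, 0 without BALB/cJ mice 3 and 5, the libraries with the most pancreatic enzyme RNA, 0 without the 3 libraries with high Y-linked genes and 11 with epithelial scaling. Of 16 hypoxia-induced genes 5 rose, among them Bnip3 at 35.9 ± 5.23 against 23.04 ± 5.29 TPM and Pdk1, the kinase that shuts pyruvate out of the citric acid cycle, at 54.1 ± 3.03 against 40.2 ± 2.91 TPM. Bnip3 turned with the B cell score.

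The Krüppel-type zinc finger genes are a large family of DNA-binding factors. Of 357 tested, 35 rose and 27 fell (17.4% called against 25.3%), and with epithelial scaling 65 rose and 17 fell. Some members were far apart. Zfp973 ran from 4.36 to 7.46 TPM in BALB/cJ (median 4.81) and from 17.5 to 22.1 TPM in C57BL/6J (median 21.02) and was lower (log2 change -1.72 ± 0.12 SE, adjusted p = 8.8e-08). Zfp27 (4.03 ± 0.210 against 7.99 ± 0.872 TPM) and Zfp874a (3.93 ± 0.702 against 7.76 ± 0.666 TPM) were lower and Zfp791 (10.6 ± 0.803 against 3.53 ± 0.677 TPM) and Zfp458 (5.24 ± 0.694 against 1.96 ± 0.260 TPM) higher, all without overlap.

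Some differences of moderate size had little spread. Among called genes that differed by less than 1 on the log2 scale, Paqr4 had the smallest adjusted p, at 42.6 ± 1.78 against 76.6 ± 3.95 TPM (log2 change -0.83 ± 0.04 SE, adjusted p = 2.9e-09). Iah1, an esterase gene, ran from 18.3 to 21.9 TPM in BALB/cJ (median 20.8) and from 38.5 to 46.1 TPM in C57BL/6J (median 41.1) and Atg2b, a lipid transfer protein of autophagy, from 47.3 to 58.1 TPM in BALB/cJ (median 52.98) and from 25.2 to 28.8 TPM in C57BL/6J (median 27.4), and neither overlapped. Ano10 was at 105 ± 8.15 against 56.95 ± 2.34 TPM, and Phyh, a peroxisomal enzyme of branched fatty acids, at 207 ± 5.01 against 133 ± 6.17 TPM (log2 change 0.64 ± 0.04 SE, adjusted p = 1.1e-08), both higher. Ttc22 at 16.6 ± 0.740 against 29.5 ± 1.88 TPM and the tubulin cofactor gene Tbcb at 41.2 ± 2.71 against 77.4 ± 5.696 TPM were lower. Crip1, an abundant LIM-domain protein of gut epithelium, was at 1391 ± 103 against 2086 ± 176 TPM (log2 change -0.58 ± 0.07 SE, adjusted p = 1.2e-05).

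Other genes were level within a narrow interval. For 427 of the 3235 genes with a mean of at least 50 TPM, the 95% confidence interval of the change lay within 0.15 on the log2 scale. Ddb1, of DNA repair, was at 153 ± 3.91 against 153 ± 5.06 TPM, Actr1a, of the dynactin complex, at 85.7 ± 2.32 against 86.3 ± 2.48 TPM and Gtf2a2, a general transcription factor, at 100.4 ± 1.901 against 98.9 ± 2.33 TPM. Gtf2a2 was called with epithelial scaling.

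Differences without overlap were spread over the genome and denser in places. On GRCm38, with 15221 tested genes placed, the share was between 7.94% (chromosome 10) and 17.2% (chromosome 17) on the autosomes and 8.13% on the X chromosome, against 11.5% of all genes. The window with the highest number among 1209 windows of 2 Mb was chromosome 17 from 34 to 36 Mb, the major histocompatibility complex, with 22 of 109 genes. Outside the immune loci of chromosomes 17 and 12, chromosome 2 from 118 to 120 Mb held 16 of 43 genes, 8 in each direction. Phgr1 lies there, with Rmdn3, a tether between mitochondria and the endoplasmic reticulum, at 37.02 ± 4.22 against 65.98 ± 5.04 TPM.

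Chromosome 4 from 138 to 140 Mb held 14 of 26 genes, and 12 of the 14 were lower in BALB/cJ. It holds a cluster of secreted phospholipase A2 genes, enzymes that release fatty acids from phospholipids and of which Pla2g2a is the best known for its strain difference. Pla2g5 was at 8.49 ± 1.39 against 15.2 ± 2.25 TPM and Pla2g2c at 2.07 ± 0.414 against 4.08 ± 0.633 TPM, both lower, and Pla2g2d was higher at 4.24 ± 0.639 against 1.58 ± 0.349 TPM, all without overlap. Neighbouring members of the cluster thus differed in opposite directions.

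Chromosome 7 from 30 to 32 Mb held 16 of 58, with Syne4, an anchor of the nucleus, at 1.94 ± 0.248 against 4.73 ± 1.26 TPM. Chromosome 8 from 70 to 72 Mb held 14 of 74, with Insl3, an insulin-like peptide gene, at 1.31 ± 0.822 against 5.33 ± 1.15 TPM. The strains did not overlap for these genes. No test of clustering was made.

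By annotated type, 25.3% of 13927 protein-coding genes were called, as were 19.3% of 822 processed pseudogenes. Of the processed pseudogenes without overlap, 85 were higher in BALB/cJ and 23 lower, against 827 and 708 of the protein-coding genes. Among 87 unprocessed pseudogenes 42.5% were called. Reads assigned to a pseudogene may derive from its parent gene, and their origin was not tested.

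The 40 largest colon differences were followed in the other gut segments of the same mice, as a description since the mice are shared. Of the 20 genes higher in BALB/cJ colon, 13 were higher without overlap in the ileum and 12 were in duodenum/jejunum. Of the 20 lower genes 16 (17 without C57BL/6J mouse 2 of the ileum) and 18 were lower without overlap. The share of all genes without overlap in those segments was not counted, so these counts have no background beside them. Ndufa12 was at 28.4 ± 2.34 against 166 ± 7.28 TPM in the ileum and 34.2 ± 3.11 against 213 ± 20.5 TPM in the duodenum/jejunum, without overlap. Col4a6 was at 0.234 ± 0.0867 against 2.23 ± 0.585 TPM in the ileum and 0.234 ± 0.0793 against 1.997 ± 0.309 TPM in the duodenum/jejunum, also without overlap.

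Other genes of the colon list were low, overlapped or differed the opposite way there. In the ileum, Klk15 was at 0 ± 0 against 0.152 ± 0.283 TPM, Afm at 0.136 ± 0.0928 against 0.0439 ± 0.0541 TPM and Plscr2 at 4.19 ± 0.920 against 3.79 ± 1.41 TPM, and the strains overlapped for these 3 genes. Apob, at 780.3 ± 256 against 907 ± 471 TPM in the ileum and 1348 ± 239 against 1132 ± 230.5 TPM in the duodenum/jejunum, was far more abundant there than in the colon and overlapped between strains. Cbr3 was higher in BALB/cJ in the ileum, at 1.98 ± 0.513 against 0.964 ± 0.273 TPM without overlap. Mptx2, a mucosal pentraxin gene higher in BALB/cJ colon, was lower in the duodenum/jejunum at 45.2 ± 16.4 against 398 ± 161 TPM without overlap, and at 61.3 ± 26.4 against 723 ± 428 TPM in the ileum, where the strains overlapped through C57BL/6J mouse 2 alone. Whether the strain difference itself differed between segments was not tested for these genes.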

How the data were processed

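Colon RNA of 6 BALB/cJ and 7 C57BL/6J mice was analysed. Per the labels' protocols, RNA was purified with the PureLink RNA mini kit and libraries were made with a TruSeq total RNA kit after ribosomal depletion with RiboZero. Per the submitters' processing notes, kallisto 0.44.0 and GRCm38 were used, while which transcript annotation was used is not stated in the sources. The authors deposited 1 table per tissue with log2(TPM + 1) per gene symbol, judged from its values. Read counts were not used here, so no count model was fitted and the depth of each library is unknown. Kallisto shares a read between transcripts that hold the same sequence according to its estimate, which can move the values of near-identical copies.

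From these values limma 3.58.1 (R 4.3.3) was fitted with a variance trend to log2(TPM + 1), pseudocount 1, over the 15769 genes with 1 TPM or more in 6 or more of the 13 libraries. Left out before the filter were 26 names that spreadsheet software had turned into dates, at most 0.129% of the TPM of a library. No 2 libraries held identical values. Correlations, permutation tests and summaries used Python 3.11.15 with numpy 2.4.6, pandas 2.3.3 and scipy 1.17.1, and figures matplotlib 3.10.9. Copies of 116 genes were searched with BLAST 2.17.0 among GENCODE M21 transcripts (95% identity over 60% of the transcript and 200 bases or more). Coordinates and promoters are from RefSeq on GRCm38.p6 and the GENCODE M21 annotation, matched by symbol: 31787 symbols matched 1 gene, 43 matched more than 1 and 2744 matched none. The fit was tested on simulated data before use.

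The members and lists were chosen with earlier results of these data known. The genes named are those of the label checks, the 20 largest called changes in each direction without overlap and with 5 TPM or more in the higher strain, the 20 called genes with the highest TPM, genes under 0.5 TPM in every library of 1 strain, the 10 smallest adjusted p-values among changes under 1, up to 6 genes in each of the 6 densest 2 Mb windows, the 10 narrowest intervals around 0, and up to 6 called members of each list, with defining or uncalled members as values. Predicted genes, clones, pseudogenes, mitochondrial genes and antigen receptor segments were left out of the ranked sets. Fdps, Mvd, Msmo1, Per3, Nr1d1, Rps3a1, Rpl26, Rps14, Col4a5 and Mki67 fall outside this rule and were chosen after their values were seen. A few genes are not reported here. Alternatives covered pseudocounts of 0.1 and 5, other filters, scaling by size factors, the variance trend, library weights, covariates for B cell markers and Y-linked genes, a block for the mouse number, and libraries left out. The limma p-values set the strain difference against the spread between mice within a strain. They do not cover whatever goes with the numbers in the sample titles.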

Additional observations from a re-analysis of the deposited data

Results flagged for a closer look

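The genes named above were searched for single libraries that stood far from the rest of their strain, by the gap to the nearest library divided by the range of the strain (above Dixon's critical value at 95% for 6 or 7 mice). Of 366 groups of libraries, 19 held such a library, and chance alone gives about 1 in 20. BALB/cJ mouse 6 accounted for 5 of them, all lowest values: Dcn at 146 TPM (next lowest 258), Col4a5 at 12.6 TPM (next 16.8), Rps14 at 813 TPM (next 964), Rps2 at 857 TPM (next 1062) and Rpl21 at 522 TPM (next 608). These are a fibroblast proteoglycan, a collagen chain and 3 ribosomal proteins.

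C57BL/6J mouse 6 was lowest for the glutathione S-transferase gene Gsta1 at 11.8 TPM (next lowest 22.3) and for the quinone reductase gene Nqo1 at 31.4 TPM (next 39.4), and highest for Tpm3-rs7 at 1.34 TPM (next highest 0.772). C57BL/6J mouse 7 was lowest for Npas2, a clock activator, at 6.75 TPM (next lowest 9.15) and for Alas1, the first enzyme of haem synthesis, at 153 TPM (next 198). BALB/cJ mouse 1 was highest for the aldo-keto reductase gene Akr1b8 at 57.7 TPM (next highest 41.0) and lowest for the glycerolipid synthesis gene Gpam at 18.2 TPM (next lowest 22.5). BALB/cJ mouse 4 was highest for Scnn1b, a sodium channel subunit, at 11.5 TPM (next highest 9.21) and lowest for the cytochrome P450 gene Cyp2c69 at 9.76 TPM (next lowest 12.97).

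Each of 5 other libraries stood apart for 1 gene. BALB/cJ mouse 2 had the lowest Crip1 at 1195 TPM (next lowest 1396), and BALB/cJ mouse 5 the highest Tbcb at 46.6 TPM (next highest 40.9). C57BL/6J mouse 1 had the lowest Chga, an enteroendocrine granule protein, at 35.6 TPM (next lowest 55.6). C57BL/6J mouse 2 had the highest Wnt2b at 14.1 TPM (next highest 9.78), and C57BL/6J mouse 4 the lowest Hoxd13 at 7.65 TPM (next lowest 12.2).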

How the results depend on the processing

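Of the 3986 calls reported, the count lay between 3156 and 4226 with other pseudocounts, filters, variance models, size factors over all genes and the Y-linked covariate, and between 3418 and 4238 when each library was left out in turn (1901 to 2361 higher, 1481 to 1877 lower). It was 3013 without BALB/cJ mice 3 and 5 and 3004 without the 3 libraries with high Y-linked genes, a setting chosen after seeing the data. Leaving libraries out also leaves fewer mice to compare. With all 13 libraries and the Y-linked gene level as a covariate, 3947 genes were called. Size factors over all genes moved the share of calls that were higher from 57.4% to 51.5%. Scaling by epithelial genes gave 3820 higher and 1107 lower. With the B cell score in the model 293 genes were called, 193 higher and 100 lower. The mouse numbers are shared between strains but do not pair the mice: same-numbered mice correlated at -0.159 to 0.0935, and only mouse 3 correlated best with its own number. With the mouse number as a replicate block, where C57BL/6J mouse 7 has no partner, 2924 genes were called (1629 higher, 1295 lower).

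Of the 183 genes named with a test, 157 were called. With the replicate block Acly, Dcn, Pdgfra and Tff3 lost their call. With the B cell score 60 kept their side of the threshold and direction, 105 kept the direction alone, and 18 changed direction without a call (adjusted p from 0.527 to 0.999). Their log2 changes were then 0.04 for Bmp3, 0.07 for Kcnk1, 0.18 for Muc3, 0.12 for Scnn1a, 0.02 for Slc5a9, 0.16 for Slc7a7 and 0.11 for Slc7a8, and -0.17 for Adh1, -0.41 for Bnip3, -0.00 for Col4a5, -0.61 for Dcn, -0.13 for Gcg, -0.55 for Insl5, -0.62 for Pdgfra, -0.02 for Slc15a1, -0.15 for Slc26a3, -0.17 for Tff3 and -0.07 for Wnt2b. The cause of these turns was not tested. In no other alternative did a named gene change direction. The filter of 5 TPM left 168 of the 183 testable. Without read counts, differences among genes near 1 TPM carry a counting error that cannot be given.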

Other observations

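Metallothioneins and zinc transporters, which bind zinc and move it across membranes, gave 5 falls and 1 rise among 21 tested genes, with a median log2 change of 0.00 beside 0.015 over all 15769 genes and 25.3% of all genes called. Among the falls were Slc39a4, given above, and Mt3, a metallothionein at 11.3 ± 0.979 against 16.8 ± 0.397 TPM without overlap (log2 change -0.54 ± 0.06 SE, adjusted p = 6.6e-06). Mt1, the zinc-inducible metallothionein, moved the other way, at 338 ± 48.1 against 236 ± 54.03 TPM with overlap (log2 change 0.54 ± 0.15 SE, adjusted p = 0.0139). Without the 3 libraries with high Y-linked genes, 2 falls and 1 rise were left, against 5 falls and 1 rise with the Y-linked gene level as a covariate. With epithelial scaling 3 falls and 3 rises were called, and with the B cell score in the model no member of the list was called.

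ABC transporters, membrane pumps that use ATP to export lipids, drugs and conjugates, gave 6 rises and 2 falls among 40, a share of calls of 20% (10 rises with epithelial scaling). Abca1, which loads cholesterol onto apolipoprotein particles, was at 11.8 ± 1.05 against 8.43 ± 1.02 TPM without overlap (log2 change 0.45 ± 0.08 SE, adjusted p = 9.3e-04). Abcg5, part of the sterol exporter that returns plant sterols and cholesterol to the lumen, was at 5.65 ± 1.07 against 3.44 ± 0.519 TPM with overlap (log2 change 0.58 ± 0.11 SE, adjusted p = 0.00191). Abcc1, an exporter of glutathione conjugates, was lower, at 16.7 ± 1.104 against 23.4 ± 2.403 TPM without overlap (log2 change -0.46 ± 0.07 SE, adjusted p = 1.8e-04). No ABC transporter was called with the B cell score in the model.

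The clock genes Dbp and Arntl were set against each other across the mice of a strain, a pair chosen after its values were seen. The p-values and their adjustment over 4 tests do not cover that choice, so no conclusion is drawn from them. Across the 7 C57BL/6J mice Pearson's r of their log2 values was -0.98 (exact permutation p = 4.0e-04, adjusted over the 4 tests made 8.0e-04) and Spearman's rho was -1 (exact permutation p = 4.0e-04, adjusted 8.0e-04). Without the 2 mice farthest from the median of Dbp, r was -0.97. Across the 6 BALB/cJ mice r was 0.04 (exact permutation p = 0.989, adjusted 0.989) and rho was -0.26 (exact permutation p = 0.658, adjusted 0.877), and without the 2 farthest mice r was -0.59. The difference between the strains in this relation was not tested, and the time of collection is not on record.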
